A study of Mus musculus with 6 samples.

Results

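A set of 10 genes was examined whose RNA was higher in OGT-deficient than in OGT-sufficient regulatory T (Treg) cells: *Myo6*, *Ecm1*, *Gpr83*, *Ly6c1*, *Rasgrp4*, *Gm4956*, *Sp6*, *Sorcs2*, *Zfp120* and *Acad10*. They were chosen on the counts of these same samples, as clear differences in which every OGT-deficient sample lay above every OGT-sufficient sample once scaled to library size. They are 10 of the 24420 genes listed, and their difference between the genotypes is therefore described here without a test. RNA had been sequenced from CD4-bead-enriched, YFP-sorted Treg cells of the lymph nodes of female C57BL/6 mice. The groups were 3 samples of the genotype Foxp3YFP-Cre/wtOgtwt/fl, called OGT-sufficient, and 3 of Foxp3YFP-Cre/wtOgtfl/fl, called OGT-deficient. Both groups carry Cre fused to YFP in the *Foxp3* locus and at least 1 floxed *Ogt* allele. They differ in whether the other *Ogt* allele is floxed or wild-type. The paper places both genes on the X chromosome, which is inactivated at random in these females. YFP-positive cells would therefore use the *Ogt* allele on the chromosome that carries Cre. Since *Foxp3* is X-linked and 1 copy carries Cre, these females also hold YFP-negative Treg cells with intact *Ogt*, which the sort leaves out. The study's methods give a general age of 6 to 12 weeks, unless noted, for its mice other than the males that lack *Ogt* and their controls. The sources used here do not give which chromosome carries the floxed allele in the Ogtwt/fl females, or whether a sample is 1 mouse or a pool, so p-values measure the spread between these samples only.

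OGT is the only enzyme known to attach O-linked N-acetylglucosamine to serines and threonines of nuclear and cytosolic proteins, and the OGA enzyme removes it. Treg cells restrain other immune cells. They pass from a resting state, in which they recirculate through lymph nodes, to an effector state with stronger suppressive function. Of the 10 genes, *Gpr83* is a known Treg-enriched gene and *Ly6c1* encodes a surface protein found on subsets of T cells, whereas several of the others are known mainly from other tissues.

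Total counts per sample were between 3375454 and 4103552, and between 24.2% and 37.1% of them fell on the single ribosomal RNA gene *Rn45s*. OGT-sufficient replicate 3 stands apart, with 18346 genes detected where each of the other 5 samples had 14412 to 15197. Levels are given as CPM, counts per 1000000 of the library size as scaled by edgeR's TMM method. *Ogt*, the targeted gene, was at 150, 170 and 251 CPM in OGT-sufficient replicates 1, 2 and 3 and at 84.0, 67.0 and 96.0 CPM in OGT-deficient replicates 1, 2 and 3. All OGT-deficient samples lay below all OGT-sufficient ones, and the log2 fold change was -1.21 ± 0.21 (SE). Over the 10949 genes that passed a low-count filter, edgeR's quasi-likelihood test gave *Ogt* an adjusted p of 0.191, with values of 1.62e-05 to 0.764 over the alternative settings. The defining markers of the sorted cells were present, with *Foxp3* between 189 and 299 CPM and *Cd4* between 530 and 722 CPM over the 6 samples. In these bulk samples, fewer cells of a type and less RNA per cell cannot be told apart.

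All 10 genes passed the low-count filter, with between 10 and 811 counts in a sample. The groups did not overlap in any of the 10, as the choice of the genes fixes, and 5.72% of all genes tested were higher in OGT-deficient cells without overlap. The log2 fold changes lay between 0.85 for *Zfp120* and 1.56 for *Myo6*, with a median of 1.35. The median over all genes tested was -0.017, and over the 626 genes higher without overlap it was 0.37. Together the 10 genes made up 242 CPM in OGT-sufficient and 603 CPM in OGT-deficient cells on average.

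**Figure D1:**
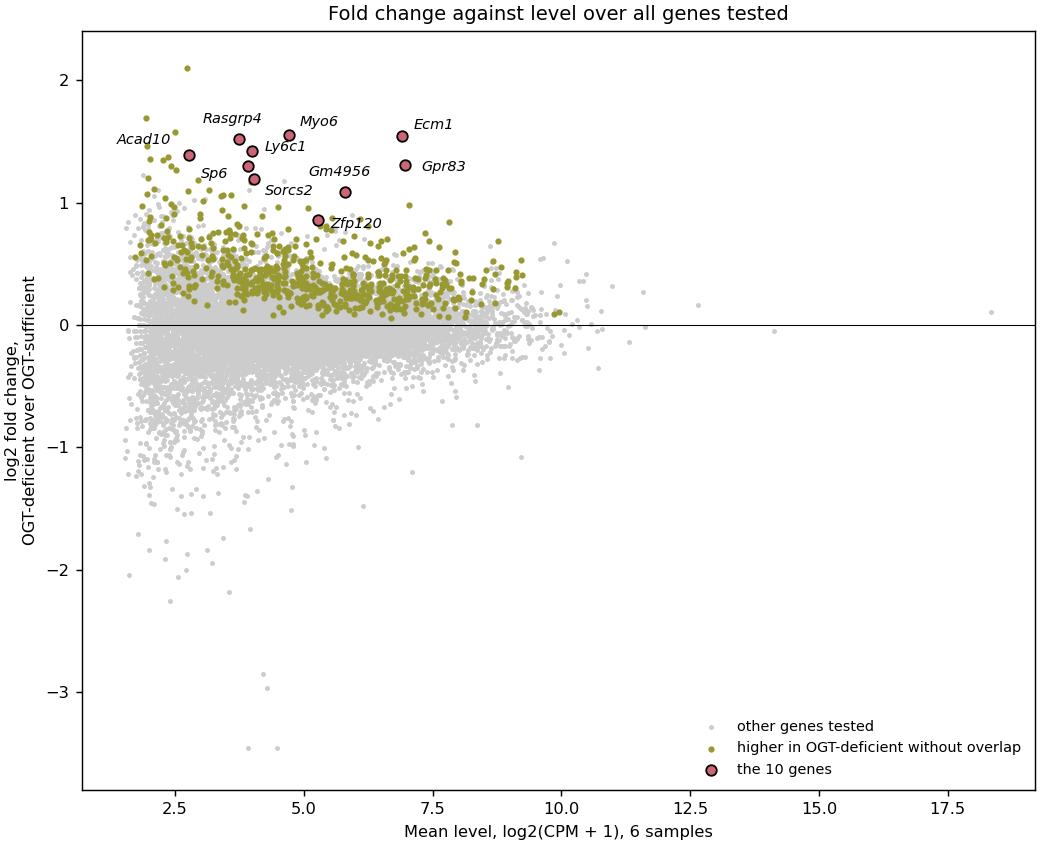
Each point is 1 of the genes tested, with its mean level over the 6 samples as log2(CPM + 1) on the x axis and its log2 fold change (OGT-deficient over OGT-sufficient) on the y axis. Olive points mark genes higher in OGT-deficient cells without overlap between groups and red points the 10 genes, which span fold changes from 0.85 to 1.56 and levels from the low to the high part of the range.

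These genes were not simply the strongest by any single measure. The gap between the groups was taken as the lowest OGT-deficient CPM over the highest OGT-sufficient CPM, and the 626 genes without overlap were ranked by it. *Myo6* was first with a gap of 2.45-fold, *Ecm1* was at rank 3 with 1.80-fold and *Rasgrp4* at rank 6 with 1.71-fold. In all, 4 of the 10 genes were among the 10 widest gaps and 5 among the 10 highest fold changes. The lowest in rank was *Gm4956* at 61, with a gap of 1.31-fold, next to *Aim1* at rank 60 and *A430088P11Rik* at rank 62, each also at 1.31-fold. The genes with the widest gaps outside the set were *Bcam* (2.08-fold), *2610524H06Rik* (1.75-fold), *Actn2* (1.75-fold), *Tmem106c* (1.68-fold) and *Acyp1* (1.63-fold). The first 3 of these and *Acyp1* averaged under 10 CPM in both groups.

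The first group of genes acts at the cell surface or outside the cell. *Ecm1* encodes a secreted matrix glycoprotein that T helper 2 cells also make. Its level was 69.5, 69.2 and 44.3 CPM in OGT-sufficient replicates 1, 2 and 3 and 208, 199 and 125 CPM in OGT-deficient replicates 1, 2 and 3. The means were 61.0 ± 14.5 and 177 ± 45.8 CPM (SD, n = 3 each), and the log2 fold change was 1.54 ± 0.23 (SE). Replicate 3 was the lowest of its group in both genotypes, and the lowest OGT-deficient sample was still 1.80-fold above the highest OGT-sufficient one. In the GENCODE M21 annotation (GRCm38), which gives all gene positions here, it lies on the minus strand at chr3:95734147-95739569 and holds an annotated microRNA gene, *Mir7014*, which had at most 1 count in a sample.

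*Gpr83* encodes a G protein-coupled receptor that is enriched in Treg cells. Its level was 62.5, 106 and 45.4 CPM in OGT-sufficient replicates 1, 2 and 3, a spread of 2.34-fold, against 182, 168 and 178 CPM in OGT-deficient replicates 1, 2 and 3, a spread of 1.08-fold. The means were 71.3 ± 31.2 and 176 ± 6.96 CPM (SD, n = 3 each), and the log2 fold change was 1.30 ± 0.26 (SE). The OGT-sufficient samples thus varied far more than the OGT-deficient ones, and without OGT-sufficient replicate 3, the lowest, the log2 fold change was 1.07, against 1.71 without replicate 2, the highest. It lies on the plus strand at chr9:14860210-14870789, with no other annotated gene inside its span.

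*Ly6c1* encodes a small glycolipid-anchored protein of the LY6 family that is also found on monocytes and endothelial cells. It was at 7.72, 9.39 and 7.08 CPM in OGT-sufficient replicates 1, 2 and 3 and at 28.0, 22.4 and 14.4 CPM in OGT-deficient replicates 1, 2 and 3. Its means were 8.06 ± 1.19 and 21.6 ± 6.86 CPM (SD, n = 3 each), and the log2 fold change was 1.42 ± 0.27 (SE). The OGT-deficient samples spread by 1.95-fold, the widest spread of the 10 genes in that group. *Ly6c1* and its neighbour *Ly6c2* are near copies. Of the 50-base words in the *Ly6c1* transcripts, 21.5% also occur in *Ly6c2* transcripts, so reads there could have been counted for either gene. *Ly6c2* itself was at 7.72, 6.98 and 6.82 CPM in OGT-sufficient and 6.17, 9.32 and 5.22 CPM in OGT-deficient replicates 1, 2 and 3. Its groups overlapped, and its log2 fold change was -0.052 ± 0.28 (SE, adjusted p = 0.975). With the counts of the pair summed, the log2 fold change was 0.90.

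Because the pair shares sequence while only *Ly6c1* is among the 10 genes, the 250 bases before an annotated start site of each are shown. They lie on the minus strand of RefSeq GRCm38.p6, for *Ly6c1* at chr15:75048838-75049087 and for *Ly6c2* at chr15:75111972-75112221. Both genes have another annotated start site, and the other *Ly6c1* window (chr15:75048664-75048913) held no match to TATAAA. The printed windows lie 63134 bases apart. Of their aligned bases 164 are identical and 52 differ (75.9% identity), with 68 gap bases left out. Capitals mark matches to TATAAA in *Ly6c1* and to TGTGGTT, a RUNX motif, on the other strand in *Ly6c2*.
Ly6c1: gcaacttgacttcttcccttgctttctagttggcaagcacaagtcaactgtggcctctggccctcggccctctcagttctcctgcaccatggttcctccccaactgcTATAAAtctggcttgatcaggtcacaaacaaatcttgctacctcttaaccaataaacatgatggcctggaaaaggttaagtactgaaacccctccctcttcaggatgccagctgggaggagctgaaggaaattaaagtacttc
Ly6c2: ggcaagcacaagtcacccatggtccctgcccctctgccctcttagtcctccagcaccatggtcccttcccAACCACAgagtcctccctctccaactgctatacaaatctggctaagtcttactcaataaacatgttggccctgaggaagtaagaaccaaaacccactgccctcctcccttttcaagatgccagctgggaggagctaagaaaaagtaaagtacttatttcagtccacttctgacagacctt

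Of the other members, the windows of *Ecm1* and *Myo6*, the members with the highest fold changes, are given to show how unlike their start regions are. They are chr3:95739570-95739819 on the minus strand and chr9:80164784-80165030 on the plus strand of RefSeq GRCm38.p6, the latter ending before the first annotated exon. Capitals mark TATAAA and GGGCGG, the GC box bound by SP and KLF factors, or its reverse complement.
Ecm1: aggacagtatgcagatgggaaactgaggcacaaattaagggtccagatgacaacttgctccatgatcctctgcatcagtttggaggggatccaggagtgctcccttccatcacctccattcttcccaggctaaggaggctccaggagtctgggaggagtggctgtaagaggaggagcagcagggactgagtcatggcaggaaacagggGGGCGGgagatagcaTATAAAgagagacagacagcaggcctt
Myo6: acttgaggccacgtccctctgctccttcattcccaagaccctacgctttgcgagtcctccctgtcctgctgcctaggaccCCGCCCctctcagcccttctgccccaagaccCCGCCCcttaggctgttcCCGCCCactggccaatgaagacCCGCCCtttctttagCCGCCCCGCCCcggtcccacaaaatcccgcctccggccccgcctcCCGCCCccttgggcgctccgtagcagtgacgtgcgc

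*Myo6* held 7 GC box matches, of which a pair overlap, and *Ecm1* held 1 together with a TATAAA. The reference gave windows for 6 of the 10 genes (*Myo6*, *Ecm1*, *Gpr83*, *Ly6c1*, *Zfp120* and *Acad10*), and both strands of the 250 bases were searched for 5 motifs. TATAAA was found in 2 of the 6 genes (*Ecm1* and, in its printed window only, *Ly6c1*) and in 12.4% of the 32851 windows of all genes. GGGCGG was found in 2 of the 6 (*Myo6* and *Ecm1*) and in 32.7% of all windows. The STAT motif TTCNNNGAA, the forkhead motif TGTTTAC and TGTGGTT were found in 0 of the 6, and in 7.02%, 3.17% and 4.40% of all windows. No motif was thus shared by most of the genes. The GC content of the printed *Ly6c1* window was 48.4%, against 67.6% for *Myo6* and a median of 52.4% over all windows.

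A second group of genes serves transport inside the cell. *Myo6* encodes myosin VI, a motor that moves toward the minus end of actin filaments and carries endocytic vesicles. It was at 14.4, 12.1 and 11.8 CPM in OGT-sufficient replicates 1, 2 and 3 and at 37.8, 39.6 and 35.2 CPM in OGT-deficient replicates 1, 2 and 3. The means were 12.7 ± 1.41 and 37.5 ± 2.17 CPM (SD, n = 3 each), with the highest log2 fold change of the set at 1.56 (standard error 0.16). Both groups were tight, since the highest sample was 1.22-fold the lowest in OGT-sufficient and 1.12-fold in OGT-deficient cells. The gene lies on the plus strand at chr9:80165031-80311729, and an antisense gene inside its span shares no exonic base with it.

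*Sorcs2* encodes a sorting receptor with a VPS10 domain, known from neurons. Its level was 10.1, 9.39 and 8.39 CPM in OGT-sufficient replicates 1, 2 and 3 and 28.0, 16.9 and 19.1 CPM in OGT-deficient replicates 1, 2 and 3. The means were 9.30 ± 0.865 and 21.3 ± 5.90 CPM (SD, n = 3 each), and the log2 fold change was 1.19 ± 0.24 (SE). OGT-deficient replicate 1 was well above the other OGT-deficient samples, and without it the log2 fold change was 0.95. *Sorcs2* spans 380960 bases of the minus strand at chr5:36017180-36398139.

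*Rasgrp4* encodes an exchange factor that activates Ras and is known from mast cells. It was at 4.26, 5.37 and 9.44 CPM in OGT-sufficient replicates 1, 2 and 3 and at 21.1, 17.6 and 16.2 CPM in OGT-deficient replicates 1, 2 and 3. The means were 6.35 ± 2.73 and 18.3 ± 2.51 CPM (SD, n = 3 each), and the log2 fold change was 1.52 ± 0.29 (SE). OGT-sufficient replicate 3 was the highest of its group here, and without it the log2 fold change was 1.93. The gene (chr7:29134851-29153961, plus strand) shares 978 exonic bases with *Fam98c* on the opposite strand, and without strand in the counting their reads cannot be told apart there. *Fam98c* itself had between 6 and 12 counts in a sample, against 16 to 82 for *Rasgrp4*. Markers of mast cells and basophils summed to between 5.90 and 21.2 CPM in OGT-sufficient and between 9.13 and 13.4 CPM in OGT-deficient cells. Of these markers, *Fcer1a* was at 0 in every sample and *Gata2* had at most 3 counts. The others were detected, with at most 47 counts in a sample for *Kit*, 21 for *Hdc*, 9 for *Cpa3*, 7 for *Ms4a2* and 6 for *Mcpt4*. The part of such cells in the level of *Rasgrp4* was not tested.

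The nuclear factors of the set were at intermediate to low levels. *Sp6* encodes a zinc finger transcription factor of the SP family, known from tooth development. It was at 7.98, 11.0 and 5.24 CPM in OGT-sufficient and 24.1, 20.4 and 15.1 CPM in OGT-deficient replicates 1, 2 and 3. Its means were 8.08 ± 2.88 and 19.9 ± 4.53 CPM (SD, n = 3 each), and the log2 fold change was 1.30 ± 0.29 (SE). Replicate 3 was the lowest of each group. *Sp6* (chr11:97013394-97024734, plus strand) shares 3329 of its 3841 exonic bases with *Gm11532*, a transcript of the opposite strand that was not analysed here, so its counts may come from either.

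*Zfp120* encodes a zinc finger protein and had the smallest difference of the set. Its level was 30.3, 22.8 and 27.0 CPM in OGT-sufficient and 55.0, 44.1 and 45.9 CPM in OGT-deficient replicates 1, 2 and 3. The means were 26.7 ± 3.78 and 48.3 ± 5.83 CPM (SD, n = 3 each), and the log2 fold change was 0.85 ± 0.16 (SE). The lowest OGT-deficient sample was 1.45-fold above the highest OGT-sufficient one. The gene lies on the minus strand at chr2:150114406-150136708, and 0.873% of the 50-base words of its transcripts occur in another gene.

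*Acad10* encodes a member of the acyl-CoA dehydrogenase family, which acts in fatty acid oxidation. It was the least abundant of the set, with 2.66, 2.68 and 4.19 CPM in OGT-sufficient and 10.5, 7.81 and 6.79 CPM in OGT-deficient replicates 1, 2 and 3. These rest on 10 to 16 counts in OGT-sufficient and 26 to 41 counts in OGT-deficient samples. The means were 3.18 ± 0.879 and 8.38 ± 1.94 CPM (SD, n = 3 each), and the log2 fold change was 1.39 ± 0.32 (SE). *Acad10* (chr5:121621026-121660514, minus strand) lies beside its relative *Acad12*, which shares 16.8% of its 50-base words and had at most 8 counts in a sample.

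*Gm4956* is the only member annotated as a pseudogene, of the transcribed kind. It was at 40.7, 39.2 and 24.6 CPM in OGT-sufficient and 90.9, 77.9 and 53.2 CPM in OGT-deficient replicates 1, 2 and 3. The means were 34.8 ± 8.87 and 74.0 ± 19.1 CPM (SD, n = 3 each), and the log2 fold change was 1.09 ± 0.24 (SE). Replicate 3 was the lowest of each group, as in *Myo6*, *Ecm1*, *Ly6c1* and *Sp6*. The gene lies on the minus strand at chr1:21285246-21298312, and none of its 50-base words occurs in another annotated transcript.

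**Figure D2:**
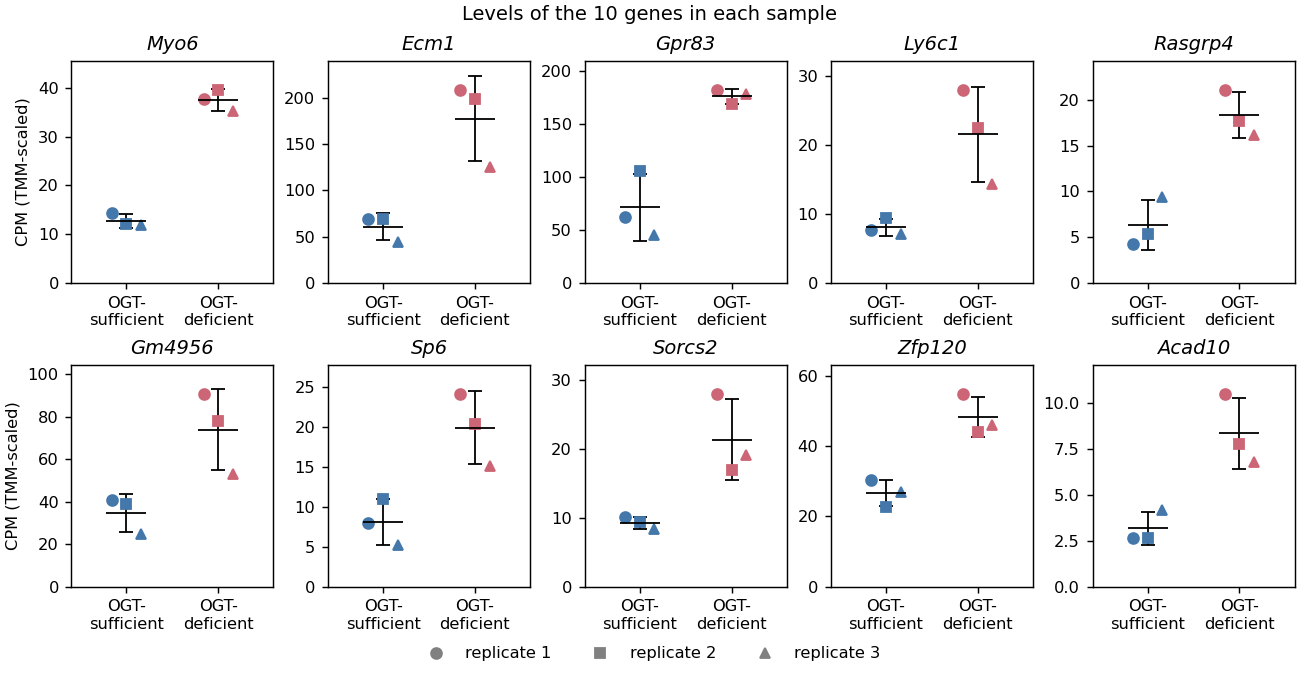
Each panel shows 1 gene, with the CPM of each sample on the y axis (axes start at 0) and the genotype on the x axis. Symbols mark replicate numbers, horizontal bars the mean and error bars the SD of 3 samples. In all 10 panels the lowest OGT-deficient sample lies above the highest OGT-sufficient sample, by 1.31-fold in *Gm4956* to 2.45-fold in *Myo6*.

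Per kilobase of annotated exons, which allows genes to be compared, the order of levels changed in places between the genotypes. In OGT-deficient cells *Ecm1* was at 70.4, *Gm4956* at 54.2 and *Gpr83* at 34.5 CPM per kilobase. At the other end, *Rasgrp4* was at 2.88, *Sorcs2* at 2.42 and *Acad10* at 1.38 CPM per kilobase, and *Myo6*, with 12078 exonic bases, at only 3.11. In OGT-sufficient cells *Gm4956* (25.5) and *Ecm1* (24.2) were close together, followed by *Gpr83* (14.0). *Ly6c1* and *Zfp120* also changed places, from 4.81 and 6.10 to 12.9 and 11.0 CPM per kilobase. *Sorcs2* (1.056), *Myo6* (1.055) and *Rasgrp4* (0.999) were close together in OGT-sufficient cells, and *Sorcs2* was the lowest of these in OGT-deficient cells. Of the 10 genes, 5 lay above the median level of all genes tested, 24.0 CPM over the 6 samples without regard to length. The genes lie on 8 chromosomes, with *Gpr83* and *Myo6* both on chromosome 9 and *Sorcs2* and *Acad10* both on chromosome 5.

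Within a genotype the samples were ordered alike for many of the genes. OGT-deficient replicate 1 was the highest of its group in 9 of the 10 genes, *Myo6* being the exception, and OGT-deficient replicate 3 the lowest in 7. OGT-sufficient replicate 3 was the lowest of its group in 7, but the highest for *Rasgrp4* and *Acad10*. Deviations from the group means, on log2(CPM + 1), had a median Pearson r of 0.32 over the 45 pairs of genes across the 6 samples, with a range of -0.57 to 0.99. The closest pairs were *Ecm1* with *Gm4956* (0.99), *Gm4956* with *Sp6* (0.90), *Ecm1* with *Sp6* (0.90) and *Rasgrp4* with *Acad10* (0.88). These are descriptions, as the pairs share 6 libraries and their scaling.

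Marker lists of cell types moved with these orders in part. The summed Treg and CD4 T cell markers (8 of 8 genes detected) were at 3026, 3378 and 2306 CPM in OGT-sufficient and 3520, 3212 and 3122 CPM in OGT-deficient replicates 1, 2 and 3. They were thus lowest in OGT-sufficient replicate 3 and highest in OGT-deficient replicate 1, although the groups overlapped. Relative to this sum, in a comparison chosen after seeing the data, the median log2 fold change was 1.16. All 10 genes were without overlap there too, which their choice favours. Of the 8 markers, 7 had a higher mean in OGT-deficient cells, so the ratio does not correct for T cell content alone. Macrophage markers (8 of 8 detected) summed to 3140, 2621 and 1451 CPM in OGT-sufficient and 1007, 3663 and 4488 CPM in OGT-deficient replicates 1, 2 and 3. They were lowest in OGT-deficient replicate 1, in which 9 of the 10 genes were highest in their group, and low in OGT-sufficient replicate 3, in which 7 were lowest. Erythroid markers reached 835 CPM and B cell markers 303 CPM in OGT-sufficient replicate 3, against at most 470 and 147 CPM in the other samples, with the globin gene *Hba-a1* at 0 throughout. Endothelial markers summed to between 163 and 181 CPM in OGT-sufficient and between 149 and 215 CPM in OGT-deficient cells, with *Emcn* at 0. Nearly all of this sum was *Pecam1*, at 159 to 174 CPM in OGT-sufficient and 140 to 209 CPM in OGT-deficient samples. *Cdh5* and *Kdr* were at most at 3.91 and 4.62 CPM in any sample, and *Egfl7* and *Plvap* at 1.31 CPM. Monocyte and neutrophil markers, none at 0, summed to between 233 and 277 and between 245 and 350 CPM. Of these, the neutrophil genes *S100a9* and *S100a8* were at 76.6 and 24.1 CPM in OGT-sufficient replicate 3, against at most 9.05 and 3.19 CPM in the other samples. Plasmacytoid dendritic cell markers, none at 0, summed to between 82.6 and 117 and between 88.5 and 128 CPM. CD8 T and NK cell markers summed to between 22.5 and 34.6 and between 14.9 and 31.6 CPM. The highest of them was *Cd8b1*, at 9.40 to 22.1 CPM, and *Ncr1* had at most 2 counts in a sample. The part of these cells in the levels of the 10 genes was not tested.

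**Figure D3:**
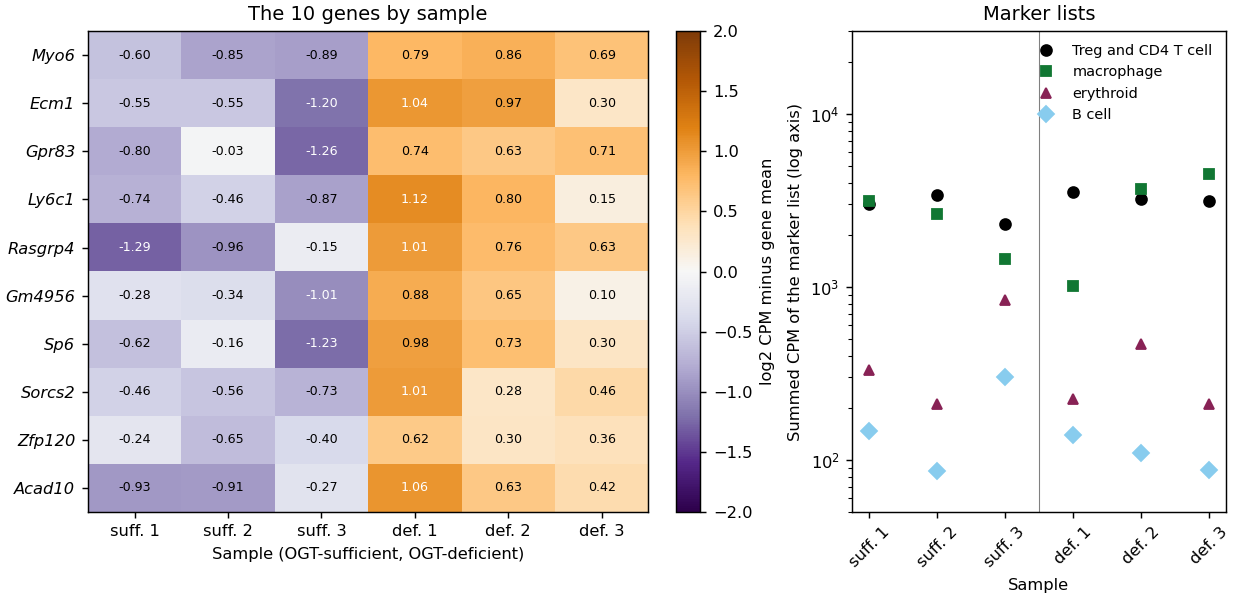
The left panel gives log2 CPM minus the mean of the gene for the 10 genes (rows) in the 6 samples (columns), from purple (below the mean) to orange (above). The right panel gives the summed CPM of 4 marker lists in the same samples on a log axis, with macrophage markers between 1007 and 4488 CPM and T cell markers between 2306 and 3520 CPM.

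The genes whose pattern over the 6 samples was most like the mean profile of the set (z-scores of log2(CPM + 1)) were *Acyp1*, *Aven*, *Disp1*, *Srp68* and *Aim1*, with Pearson r from 0.995 to 0.985. *Acyp1* was at 3.63 ± 0.436 CPM in OGT-sufficient and 7.78 ± 1.38 CPM in OGT-deficient cells (SD, n = 3 each). *Aim1* was at 152 ± 14.2 and 237 ± 18.5 CPM (SD, n = 3 each). A high r here reflects mainly the difference between the genotypes, on which the set was chosen.

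Relatives and pathway partners of the 10 genes, with general Treg signature and resting T cell genes, were then examined. The 9 lists hold 149 genes other than the members. Of these, 119 were tested and 0 passed an adjusted p of 0.1 by edgeR's quasi-likelihood test, which called 0.0274% of all genes. At an unadjusted p under 0.05, 11 were higher and 9 lower in OGT-deficient cells (16.8% of the list genes, against 7.10% of all genes). Most of these were in the Treg signature (39.1% of 23 tested) and resting T cell lists (31.3% of 16). The lists were chosen with earlier results of these data known, so the shares are not independent of that choice. The share was 0% in the Ras, fatty acid oxidation and GPR83 partner lists and 10.5% of 19 myosin genes. It was 18.8% of 16 SP and KLF factors, 20% of 5 LY6 genes and 50% of 2 VPS10-domain receptors. DESeq2 called 4 list genes (0.347% of all genes) and edgeR's exact test called 5 (0.731% of all genes) at an adjusted p of 0.1. The median log2 fold change over the 119 genes was 0.0048, with medians of the single lists between -0.18 and 0.20. The list calls of both tests fell on Treg signature and resting T cell genes.

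Close relatives of the members did not pass the test. Of 19 myosin and myosin VI adaptor genes tested, 0 were higher and 2 lower at an unadjusted p under 0.05, with *Myo1c*, a membrane-linked myosin, at 55.9 ± 12.4 and 35.6 ± 3.97 CPM (SD, n = 3 each, log2 fold change -0.65, adjusted p = 0.460). None of 13 genes of Ras, its exchange factors and its GTPase-activating proteins passed an unadjusted p of 0.05. *Rasgrp1*, the main RasGRP of T cells, was at 359 and 392 CPM on average (log2 fold change 0.13 ± 0.11, SE), and *Rasgrp2* at 85.0 and 102 CPM (0.26 ± 0.15, SE). Of 5 LY6 family genes tested, *Ly6e* was without overlap, at 489 ± 135 and 704 ± 77.0 CPM (SD, n = 3 each, log2 fold change 0.53, adjusted p = 0.663). Of the VPS10-domain receptors, *Sorl1* was at 137 ± 37.0 and 90.2 ± 6.43 CPM (SD, n = 3 each, log2 fold change -0.61, adjusted p = 0.519), opposite in sign to *Sorcs2*. The log2 fold change of *Sort1* was 0.25 ± 0.42 (SE), and *Sorcs1* and *Sorcs3* had too few counts to be tested.

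Among 16 SP and KLF factors tested, 2 were higher and 1 lower at an unadjusted p under 0.05. *Klf2*, a factor of resting T cells that drives genes of recirculation, was at 197 ± 27.2 and 282 ± 26.6 CPM (SD, n = 3 each, log2 fold change 0.52, adjusted p = 0.405). *Klf3* had a log2 fold change of 0.40 (adjusted p = 0.401) and *Klf10* of -0.47 (adjusted p = 0.465), both without overlap between groups. In contrast, none of 24 acyl-CoA dehydrogenase and fatty acid oxidation genes passed an unadjusted p of 0.05, and their median log2 fold change was -0.021. The lowest p was that of *Acadsb*, at a log2 fold change of 0.50 ± 0.23 (SE, adjusted p = 0.707). *Pcsk1n*, the precursor of a proposed GPR83 ligand, had no count in any sample, and the arrestins, of which *Arrb2* showed a log2 fold change of 0.098 ± 0.14 (SE), did not pass either.

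No Treg signature gene passed an adjusted p of 0.1 by edgeR's quasi-likelihood test. Of 23 tested, 4 were higher and 5 lower at an unadjusted p under 0.05 (39.1%, against 7.10% of all genes). That share counts *Klrg1* and *Gzmb*, which the study had reported to differ in these samples, so it is not independent of the choice of list. The median log2 fold change was 0.014. *Socs2*, a feedback inhibitor of cytokine signalling, was at 14.7 ± 3.45 and 28.6 ± 0.287 CPM (SD, n = 3 each), and the log2 fold change was 0.96 (adjusted p = 0.225, or 0.0904 by DESeq2). *Lrrc32*, which tethers latent TGF-beta on Treg cells, was at 120 ± 24.8 and 202 ± 17.2 CPM (SD, n = 3 each), and the log2 fold change was 0.75 (adjusted p = 0.299, or 0.0421 by DESeq2). *Klrg1* and *Gzmb*, effector Treg genes that the study itself singled out on these samples, had log2 fold changes of -1.88 and -1.91 (adjusted p = 0.268 and 0.385). DESeq2 gave them adjusted p-values of 0.0662 and 0.281, and edgeR's exact test 0.0033 and 0.030. *Foxp3* was at 239 and 274 CPM on average, and its log2 fold change was 0.20 ± 0.17 (SE, adjusted p = 0.840).

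Of 16 resting T cell genes, 5 were higher and 0 lower at an unadjusted p under 0.05 (31.3%, against 7.10% of all genes). The median log2 fold change was 0.20. *Cxcr4*, a chemokine receptor, had the lowest p, at 74.1 ± 5.24 and 120 ± 6.02 CPM (SD, n = 3 each), and the log2 fold change was 0.70 (adjusted p = 0.191, or 0.0229 by DESeq2). *Klf2*, the chemokine receptor gene *Ccr7* (log2 fold change 0.31) and the survival gene *Bcl2* (0.36) were also among them, the last 2 named after their values were seen. Other genes of the list were flat or slightly lower, such as *Bach2* (0.046), *Il7r* (-0.0084), *Dapl1* (-0.13) and *Tcf7* (-0.17), none at an unadjusted p under 0.05.

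**Figure D4:**
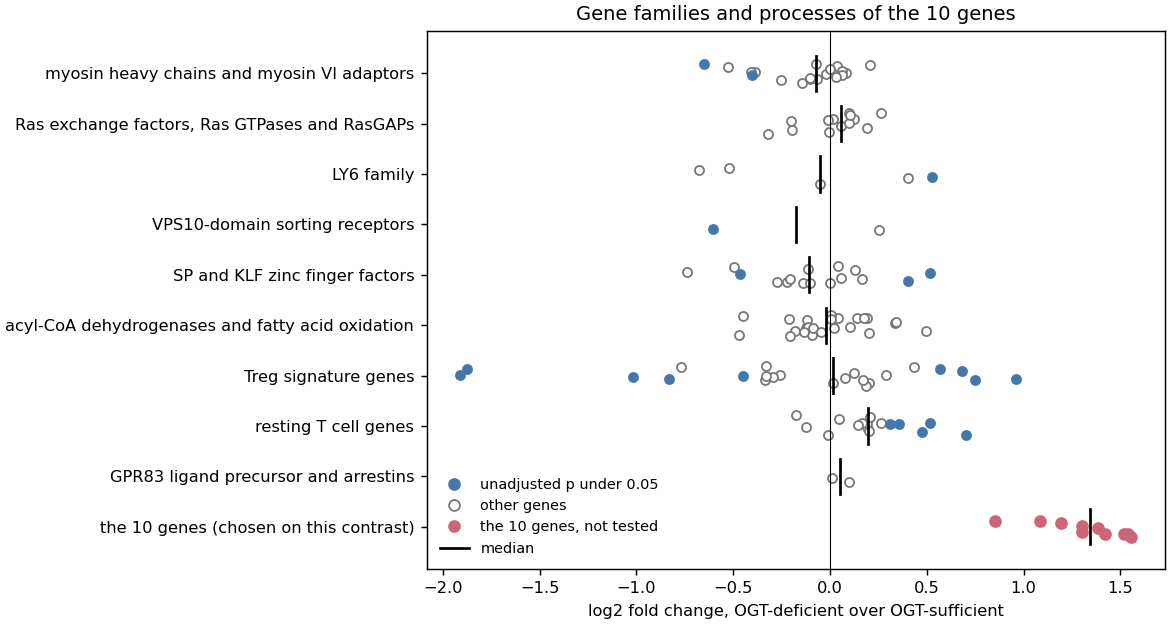
Each row is a list of genes related to the 10 genes by family or process and the x axis gives the log2 fold change (OGT-deficient over OGT-sufficient). Filled blue points have an unadjusted p under 0.05, open points do not, and black bars mark medians, which lie between -0.18 and 0.20 for the lists against 1.35 for the 10 genes (red), which were chosen on this contrast.

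The neighbours of the genes on the chromosome were also compared, as the 5 nearest genes of the table on each side, 100 in all. Of these, 46 were tested and 0 passed an adjusted p of 0.1 by edgeR's quasi-likelihood test, DESeq2 or the exact test. At an unadjusted p under 0.05, 2 were higher and 0 lower (4.35%, against 7.10% of all genes). They were *Mcl1*, a survival gene 70968 bases from *Ecm1* (log2 fold change 0.30, adjusted p = 0.577), and *Ly6e*, 84114 bases from *Ly6c1*. Of the 46 tested, 6 were higher in OGT-deficient cells without overlap between groups and 0 lower. Of all 10949 genes tested, 626 (5.72%) were higher and 819 lower without overlap. The share of neighbours higher was thus above that of all genes, a difference that was not tested. The median log2 fold change of the neighbours was 0.029, against -0.017 over all genes tested.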

How the data were processed

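Treg cells of 3 OGT-sufficient and 3 OGT-deficient samples were grouped by the genotype and title in their labels. The authors deposited whole-number counts per gene symbol. According to the study's methods and the submitters' processing notes, reads were trimmed (Trimmomatic 0.33), aligned to mm10 (Bowtie2 2.2.4.0) and quantified with Cuffquant, while the notes list featureCounts. The annotation, strand setting and treatment of shared reads are not given in the sources used here. The deposited table also holds the authors' own comparison (fold changes, p-values), which was not used.

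Counts were analysed with edgeR 4.0.16 (R 4.3.3): TMM scaling, filterByExpr with min.count 10, the quasi-likelihood test and p-values adjusted by Benjamini-Hochberg across 10949 genes. The SE was taken as the absolute log2 fold change divided by the square root of F. The 10 genes, the lists and the named genes (all members, *Ogt*, per list up to 4 genes with an unadjusted p under 0.01 or else the lowest, the 5 widest gaps and the 5 most alike outside the set) were chosen with earlier results of these data known. Gene positions are from GENCODE M21 (GRCm38, the build of mm10), which matched all 10 genes. Alternatives were DESeq2 1.42.0, size factors of DESeq2 in edgeR, edgeR's exact test, library size with and without *Rn45s*, no filter, a replicate block, summing *Ly6c1* with *Ly6c2* and leaving out each sample. All replicate pairs differed by more than sampling noise (chi-square per degree of freedom 3.46 to 24.2). A result on an item withheld for evaluation is not reported here.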

Additional observations from a re-analysis of the deposited data

How the results depend on the processing

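The choice of the 10 genes fixes their direction, and leaving out a sample or changing the test cannot make their groups overlap, so only the size of the differences is compared here. Their 131 log2 fold changes over 13 alternative settings and the sum of *Ly6c1* with *Ly6c2* lay between 0.75 and 1.93. Of these, 128 moved by less than 1 SD between replicates. The other 3 were *Myo6* without OGT-sufficient replicate 1 (1.69), *Rasgrp4* without OGT-sufficient replicate 3 (1.93) and *Ly6c1* summed with *Ly6c2* (0.90). The median was 1.19 to 1.52 with a sample left out, and 1.16 relative to T cell markers. The count of genes higher at an adjusted p under 0.1, 1 in the reported test, was 20 with DESeq2, 39 by the exact test and 66 with no filter on low counts, and 0 to 4 with a sample left out (0 without OGT-deficient replicate 2 or 3, 4 without OGT-sufficient replicate 3). Genes of the family lists went from 0 to 4, 5 and 7 in the first 3 of these settings, and the neighbours stayed at 0 in all. *Ogt* passed with DESeq2 (-1.19), the exact test (-1.21) and no filter (-1.15). The cause of these changes was not tested. Of genes with an unadjusted p under 0.05, 43.5% were higher in the reported test, 33.2% with library size only, and between 41.4% and 56.6% with a sample left out. Replicate numbers showed no evident pairing of the samples (correlations of deviations -0.29, 0.010 and -0.12), which so few samples cannot settle. With the replicate block the count of genes higher was 0 (679 genes at an unadjusted p under 0.05), and the median over the 10 genes was 1.38. Counts as low as those of *Acad10* limit the precision of its fold change.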
